A study of Canis lupus familiaris with 8 samples.

Results

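The 5 T cell surface and adaptor genes CD3E, CD8A, CD6, TRAT1 and SH2D1A were followed in the skin of dogs with depigmenting autoimmune disease and in healthy skin. They were taken by probe name from a custom NanoString panel, in which each RNA molecule is counted by a fluorescent barcode without amplification, and they are 5 of its 160 genes. RNA came from formalin-fixed archival skin of 2 dogs with Vogt-Koyanagi-Harada syndrome (VKH, also called uveodermatologic syndrome), 1 dog with vitiligo and 5 healthy controls. Per the labels, the VKH dogs were a male Bernese Mountain Dog of 2.5 years and a male Husky of 2 years, the vitiligo dog was a neutered male Labrador cross of 1 year, and the healthy controls were 3 spayed females and 2 neutered males of 6 to 12 years and 5 different breeds or crosses. The cases were client-owned dogs with spontaneous disease, sampled by shave or punch biopsy of lesional skin of the nose, and the healthy samples were margins of amputated legs. The study's case descriptions differ from these labels in the age and neuter status of the second VKH dog and in the age and breed mix of the vitiligo dog. Age, body site and way of sampling therefore differed together with disease, and their effects cannot be told apart from it.

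A T cell recognises peptide through its antigen receptor, which cannot signal on its own and depends on the attached CD3 chains. The CD8 co-receptor binds MHC class I and marks most cytotoxic T cells, and adaptor proteins below the membrane carry the signal onward. In human vitiligo, cytotoxic T cells that target melanocytes are known effectors of pigment loss. Among the genes described here, CD3E encodes a signalling chain of the receptor complex, CD8A a chain of the co-receptor, CD6 a scavenger-receptor family glycoprotein that binds ALCAM, TRAT1 a transmembrane adaptor associated with the receptor, and SH2D1A the adaptor SAP, which docks on SLAM family receptors in T cells and NK cells.

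All 5 genes were higher in VKH and in vitiligo skin than in healthy skin. Joined as 3 cases, the diseased dogs had 8.28 times the mean healthy level of CD3E, 10.9 times that of CD8A, 5.61 times that of CD6, 5.58 times that of TRAT1 and 3.70 times that of SH2D1A. The healthy level behind the last pair was low: TRAT1 was above background in 0 of the 5 controls and SH2D1A in 2, so these ratios rest on counts near the noise of the probes. CD6 was above background in all 5 controls, but close to it in healthy replicates 1, 2, 4 and 5. For each of the 5 genes, every case lay above every healthy control, which 34.6% of the 156 genes tested also did. The 5 transcripts together made up 0.309% and 0.259% of all panel counts in the VKH dogs and 0.302% in the vitiligo dog, against 0.0539% to 0.0767% in the healthy controls. In bulk tissue, more T cells and more of these RNAs per cell cannot be told apart.

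Panel totals ran from 209889 to 742667 counts per dog, and the background, taken as the mean of the 8 negative control probes plus 2 SD, from 16.6 to 27.8 counts. Each dog's counts were divided by its level of the housekeeping genes B2M, RPL13A, CCZ1 and HPRT (their geometric mean), and a scaled count has the size of a raw count in a dog of average housekeeping level. The skin keratins KRT5, KRT14, KRT1 and KRT10 with FLG and IVL marked every sample as skin, with a sum of 267046 and 492414 scaled counts in VKH, 227478 in vitiligo and 79515 to 178846 in the controls. KRT1, KRT10 and FLG, genes of the outer epidermis, were called higher in the 3 cases by 1.76, 1.74 and 2.32 on the log2 scale (edgeR adjusted p = 0.0108, 0.0194 and 0.00154). In the vitiligo dog alone they were at 1.43, 0.97 and 1.41. KRT5, KRT14 and IVL were not called in the cases, at 0.03, 0.65 and 0.36 (edgeR adjusted p = 0.959, 0.167 and 0.529). The skin gene LORICRIN was not called either, at 0.70 (adjusted p = 0.117). The part of these shifts in the results below was not tested. Probes differ in how well they capture their target, so levels are compared between dogs for 1 gene and not between genes.

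CD3E was above background in every dog, and closest to it in healthy replicate 1, with 47 raw counts against a background of 27.8. Its scaled count was 751 in VKH replicate 1, 910.1 in VKH replicate 2 and 658 in the vitiligo dog, against 66.5, 140.1, 85.5, 104 and 71.0 in healthy replicates 1 to 5. The cases did not overlap the healthy controls, since the lowest case was 4.69 times the highest control. The 2 highest controls were the male dogs, replicates 2 and 4, which were also among the oldest. The mean was 831 ± 112 (SD, n = 2) in VKH and 93.3 ± 29.9 (SD, n = 5) in healthy skin, a log2 fold change of 3.15 with a standard error (SE) of 0.34 (edgeR quasi-likelihood test, adjusted p = 8.43e-05).

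CD8A had the largest change of the 5 genes. It was at 499.6 and 718 scaled counts in VKH replicates 1 and 2, at 454 in the vitiligo dog, and at 59.4, 52.4, 56.5, 48.9 and 38.9 in healthy replicates 1 to 5. The lowest case was 7.64 times the highest control, the widest gap of the 5 genes. The healthy controls also lay closest together for this gene, with a coefficient of variation of 15.6%. The VKH mean of 609 ± 154 (SD, n = 2) stood against 51.2 ± 7.97 (SD, n = 5), a log2 fold change of 3.57 (SE 0.30, edgeR adjusted p = 2.24e-05). By this p-value CD8A ranked 2 and by the size of its rise 6 among all 156 genes tested in VKH.

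CD6 was also separated between the groups, at lower counts. The 2 VKH dogs had 162 and 232 scaled counts and the vitiligo dog 203, while healthy replicates 1 to 5 had 48.1, 35.3, 27.4, 36.4 and 30.1. The lowest case was 3.37 times the highest control, which was replicate 1. That control had the lowest panel total and the highest background of the 8 dogs, and its CD6 count of 34 was close to its background of 27.8. Healthy replicates 2, 4 and 5 were also close, with raw counts of 29, 32 and 31 against backgrounds of 26.8, 24.5 and 24.2. Only replicate 3, with 51 against 22.8, stood clearly above, so the healthy CD6 level was measured near background. In VKH the mean was 197 ± 49.6 (SD, n = 2) and in healthy skin 35.5 ± 7.97 (SD, n = 5), a log2 fold change of 2.48 (SE 0.32, edgeR adjusted p = 0.000281).

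TRAT1 was the least counted of the 5 genes. VKH replicates 1 and 2 had 46 and 50 raw counts and the vitiligo dog 29 (95% exact Poisson interval 19.4 to 41.6), against 3, 8, 15, 8 and 7 in healthy replicates 1 to 5. All 3 cases were above their background and none of the 5 healthy controls was, so the healthy level was not measured above the noise of the probes. After scaling, the cases had 31.1, 62.8 and 33.3 and the controls 4.25 to 9.75 with a median of 8.07, and the groups did not overlap. The log2 fold change in VKH was 2.58 (SE 0.42, edgeR adjusted p = 0.00107). With every count under 20 raised to 20, it was 1.16 (adjusted p = 0.0417).

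SH2D1A separated the groups least. It was at 103 and 77.8 scaled counts in VKH replicates 1 and 2 and at 118 in the vitiligo dog, and at 49.5, 23.1, 20.4, 27.3 and 14.6 in healthy replicates 1 to 5. The lowest case was 1.57 times the highest control, again replicate 1, and only replicates 1 and 3 of the 5 controls were above background. The healthy controls varied most for this gene, with a coefficient of variation of 49.7%. Its log2 fold change in VKH was 1.77 (SE 0.43, edgeR adjusted p = 0.00904). This call was lost without VKH replicate 1 (log2 fold change 1.55, adjusted p = 0.0661) and when counts were scaled by the panel total (1.00, adjusted p = 0.12), under which the cases and the controls overlapped.

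**Figure D1:**
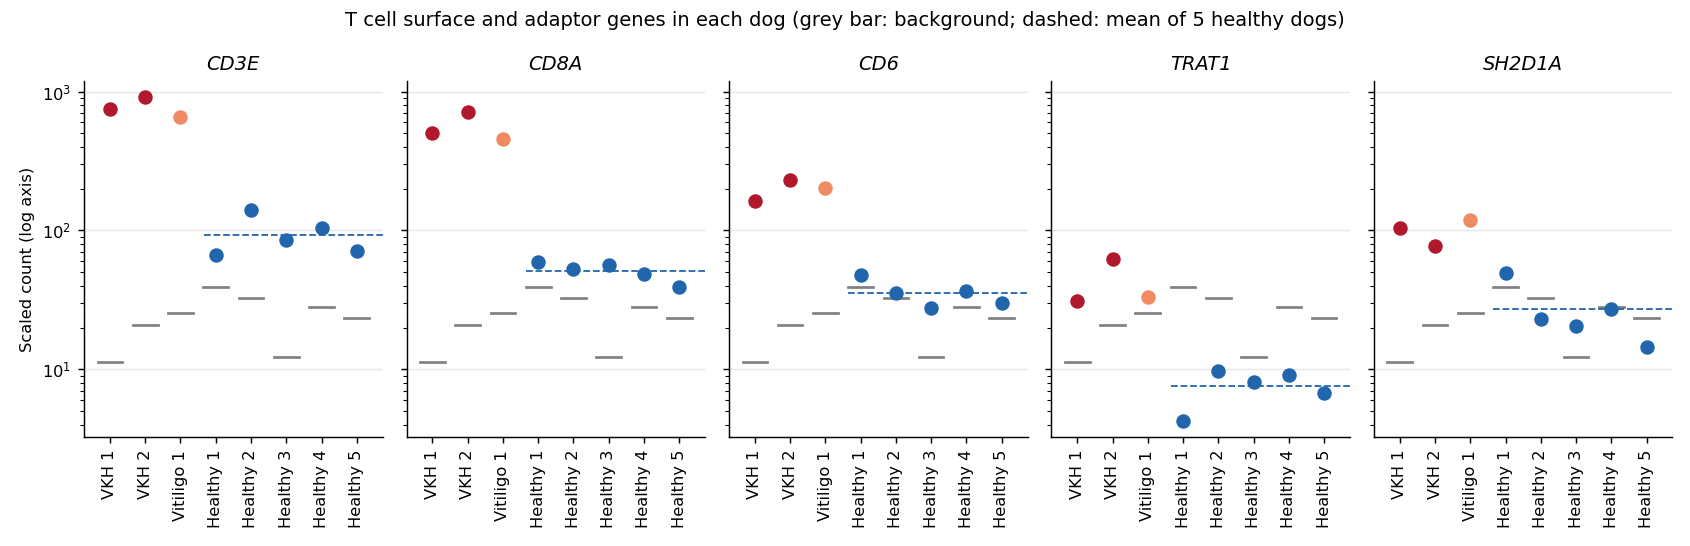
Scaled count of each gene (log axis) in the 2 VKH dogs (dark red), the vitiligo dog (orange) and the 5 healthy controls (blue), with each dog's background as a grey bar and the healthy mean as a dashed line. All 3 cases lie above all 5 controls in each panel, by a factor of 7.64 for CD8A and 1.57 for SH2D1A between the nearest dogs, and the 5 TRAT1 values of healthy skin lie below background.

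The rank of the cases was not the same for all genes. VKH replicate 2, the Husky, had the highest scaled count of CD3E, CD8A, CD6 and TRAT1 among the 3 cases and the lowest of SH2D1A. The vitiligo dog was lowest for CD3E and CD8A, between the VKH dogs for CD6 and TRAT1, and highest for SH2D1A. Within the cases the highest value was 1.38 times the lowest for CD3E and 2.02 times for TRAT1, the narrowest and the widest of the 5 spreads. In healthy skin the corresponding factors ran from 1.53 for CD8A to 3.40 for SH2D1A.

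The first comparison asked which genes differ between VKH and healthy skin. All 5 T cell genes were higher in VKH, where 31.4% of the 156 genes tested were called higher and 12.2% lower (edgeR, Benjamini-Hochberg adjusted p under 0.05). Their median log2 fold change was 2.58, and that of all genes tested was -0.01. The choice of scaling moved all genes together: the median of all genes shifted by -0.86 on the log2 scale with the panel total and by 0.66 with the positive controls, and the calls over the panel went from 49 higher and 19 lower to 23 and 59, and to 39 and 2. An exact permutation test over the 2 VKH and 5 healthy dogs gave p = 0.0952 (two-sided) for each gene, which is the smallest p this design allows.

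**Figure D2:**
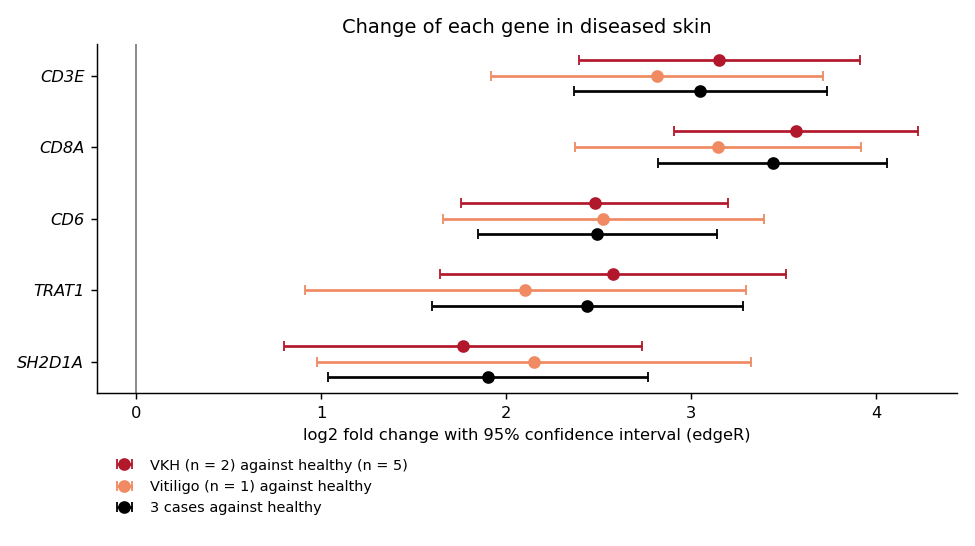
Log2 fold change of the 5 genes against healthy skin, with 95% confidence intervals from edgeR, for VKH (dark red), vitiligo (orange) and the 3 cases joined (black). All 15 intervals lie above 0, with CD8A farthest to the right at 3.57 in VKH and SH2D1A nearest to 0 at 1.77.

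The vitiligo dog showed the same direction for each gene. All 5 were called higher, against a background of 21.8% of genes called higher and 2.56% called lower. The log2 fold change was 2.82 for CD3E (SE 0.40, edgeR adjusted p = 0.000745), 3.15 for CD8A (SE 0.35, adjusted p = 0.000113) and 2.53 for CD6 (SE 0.39, adjusted p = 0.000981). The adaptors were at 2.10 for TRAT1 (SE 0.53, edgeR adjusted p = 0.0184) and 2.15 for SH2D1A (SE 0.53, adjusted p = 0.0164). Here 1 dog was compared and was assumed to vary as the other groups did, and the 5 controls were the same dogs as in the VKH comparison. Scaling by the positive controls kept the directions but ended all 5 calls (3 of 5 stayed at an unadjusted p under 0.05), with log2 fold changes from 1.67 for TRAT1 to 2.68 for CD8A and adjusted p from 0.0704 to 0.509. TRAT1 also lost its call with no scaling (1.81, adjusted p = 0.144), with the floor of 20 counts (0.69, adjusted p = 0.431) and against the male controls alone (1.81, adjusted p = 0.141), and SH2D1A with no scaling (1.97, adjusted p = 0.0695) and with the panel total (1.67, adjusted p = 0.104).

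With the 3 cases joined, the 5 genes were again all called higher, where 36.5% of all genes were called higher and 14.1% lower. CD3E rose by 3.05 on the log2 scale (SE 0.31, edgeR adjusted p = 3.25e-05), CD8A by 3.44 (SE 0.28, adjusted p = 8.95e-06) and CD6 by 2.49 (SE 0.29, adjusted p = 7.99e-05). TRAT1 rose by 2.44 (SE 0.38, edgeR adjusted p = 0.000586) and SH2D1A by 1.90 (SE 0.39, adjusted p = 0.00253). With the floor of 20 counts TRAT1 was at 1.02 (edgeR adjusted p = 0.0317), since its healthy counts lay below background. An exact permutation test over the 3 cases and 5 controls gave p = 0.0357 (two-sided) for each gene, the smallest that these numbers of dogs allow.

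VKH and vitiligo were then set against each other. None of the 5 genes differed by edgeR between the 2 VKH dogs and the vitiligo dog, neither after adjustment nor at an unadjusted p under 0.05, and DESeq2 and limma also gave 0 of 5; over the panel 0% of genes were called higher and 0.641% lower in VKH. The difference, VKH minus vitiligo, was 0.34 on the log2 scale for CD3E (95% confidence interval -0.86 to 1.53), 0.42 for CD8A (-0.61 to 1.45) and -0.05 for CD6 (-1.15 to 1.05). For TRAT1 it was 0.47 (-0.91 to 1.86) and for SH2D1A -0.38 (-1.82 to 1.06). With 3 dogs these intervals leave room for differences of more than 1 on the log2 scale in either direction for CD6 and SH2D1A, and upward for the other genes.

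The ratio of CD8A to CD3E within a dog needs no scaling. It compares 2 probes and so is no ratio of cells, but it can be read between dogs. It was 0.665 (95% counting interval 0.605 to 0.730) and 0.789 (0.706 to 0.882) in the VKH dogs and 0.691 (0.606 to 0.786) in the vitiligo dog. In healthy replicates 1 to 5 it was 0.894, 0.374, 0.660, 0.473 and 0.548. The cases lay inside the healthy range through healthy replicate 1 alone, whose interval, from 42 CD8A and 47 CD3E counts, ran from 0.575 to 1.38. The other 4 controls, at 0.374 to 0.660, lay below all 3 cases, but only just for healthy replicate 3. Its ratio of 0.660 (0.511 to 0.850) was nearly that of VKH replicate 1, 0.665, and their intervals overlapped. On the log2 scale the cases were higher by 0.33 (exact permutation test, two-sided p = 0.286; adjusted over the 4 ratios to CD3E, 0.286), and the VKH dogs alone by 0.35 (exact p = 0.381). Without healthy replicate 1 the difference for the 3 cases was 0.49 (exact p = 0.0571, the smallest that 3 against 4 dogs allow). Counting intervals cover counting error only. These ratios are of counts without background subtraction. The CD8A counts of the controls were 40 to 105, beside negative control means of 10.9 to 14.9. Those of the cases were 395 to 740, beside means of 6.5 to 13.25, so background was a larger share of the healthy counts.

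The other 3 genes rose less than CD3E in the measured counts. Relative to CD3E, CD6 was lower in the cases by 0.61 on the log2 scale (exact permutation p = 0.0714), TRAT1 by 0.79 (exact p = 0.0357) and SH2D1A by 1.13 (exact p = 0.0714), and each of the 3 had p = 0.0952 after adjustment over the 4 ratios, so none passed. The TRAT1 ratio was 0.0413 and 0.0690 in the VKH dogs and 0.0507 in the vitiligo dog, and 0.0638 to 0.0959 with a median of 0.0879 in the controls, in which its counts were at the level of background. After the mean of the negative controls was subtracted, the TRAT1 difference was 0.31 in the opposite direction (adjusted exact p = 0.857), and those of CD6 and SH2D1A shrank to -0.22 and -0.28. The SH2D1A ratio of healthy replicate 1, 0.745, stood far above the 0.165 to 0.264 of the other 4 controls.

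**Figure D3:**
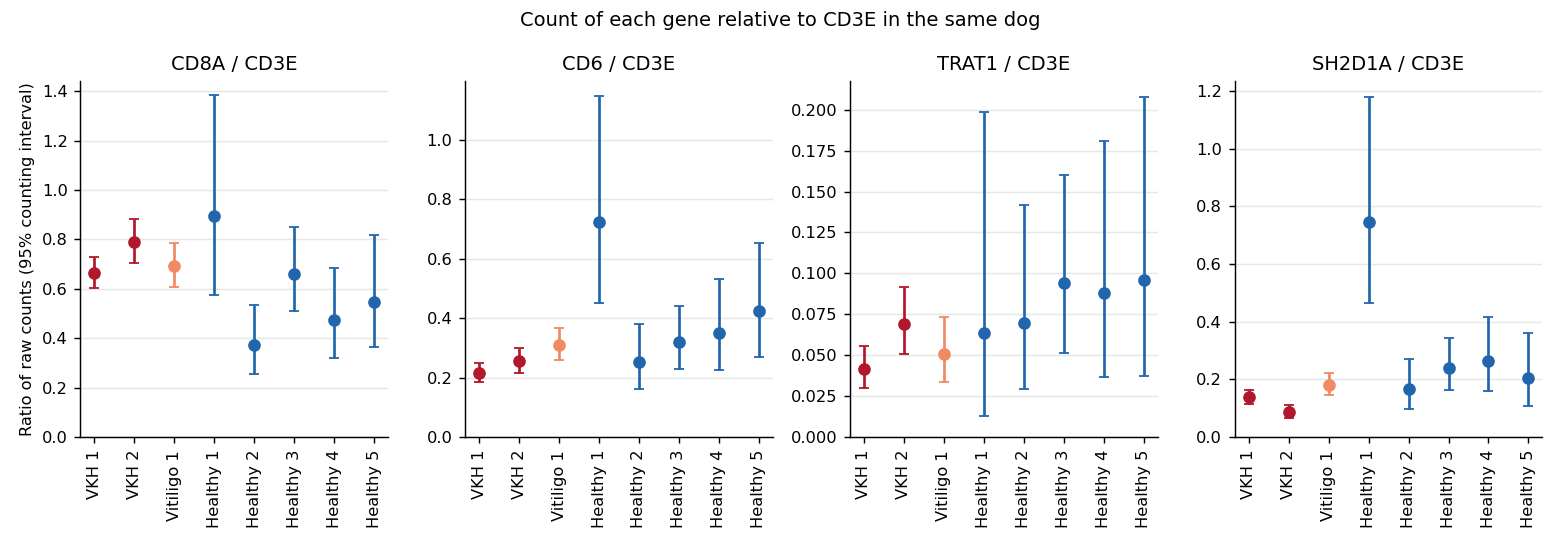
Ratio of the raw count of CD8A, CD6, TRAT1 and SH2D1A to that of CD3E in each dog, with 95% counting intervals (2 VKH dogs dark red, vitiligo dog orange, 5 healthy controls blue). The CD8A ratios of the 3 cases, 0.665 to 0.789, fall within the healthy range of 0.374 to 0.894 because of healthy replicate 1, and the intervals of the controls are wide because their counts are low.

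A further comparison, chosen after the values were seen, set the genes against PTPRC (CD45), the phosphatase that all leukocytes carry and that was itself higher in the cases by 1.52 on the log2 scale (SE 0.28, edgeR adjusted p = 0.00147). CD3E per PTPRC count was 0.747 and 0.888 in the VKH dogs and 0.730 in the vitiligo dog, against 0.208 to 0.318 in the controls. CD8A per PTPRC count was 0.497, 0.701 and 0.504 in these 3 dogs and 0.119 to 0.273 in the controls. Cases and controls did not overlap for CD3E, CD8A or TRAT1 (exact permutation p = 0.0357 each, adjusted over the 5 ratios 0.0595), and they overlapped through healthy replicate 1 for CD6 (exact p = 0.0714) and through healthy replicates 1 and 4 for SH2D1A (exact p = 0.536). The share of all genes without overlap relative to PTPRC was not computed, so this separation cannot be called particular to these genes. The TRAT1 ratios of the controls rest on 3 to 15 counts below background: with counts under 20 raised to 20 the groups overlapped and the difference turned to -0.59 (exact p = 0.393), while it was 2.02 after subtraction of the negative control mean (exact p = 0.0357). After that subtraction CD6 did not overlap, at 0.156 to 0.221 in the cases and 0.0407 to 0.140 in the controls (exact permutation p = 0.0357). SH2D1A still overlapped, with a log2 difference of 1.42 (exact permutation p = 0.143). With the floor of 20 counts CD6 overlapped as before (exact permutation p = 0.0714).

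In edgeR with PTPRC as the only scaling gene, CD3E and CD8A were called higher in VKH, by 1.57 (adjusted p = 0.00579) and 1.91 (adjusted p = 0.00424) on the log2 scale, where 7.10% of 155 genes were higher and 51.0% lower. CD6 at 0.78 (adjusted p = 0.209), TRAT1 at 1.03 (adjusted p = 0.0963) and SH2D1A at 0.03 (adjusted p = 0.976) did not pass. In the 3 cases the same 2 genes were called, at 1.52 for CD3E (edgeR adjusted p = 0.00259) and 1.83 for CD8A (adjusted p = 0.00196), with 7.74% of genes higher and 54.2% lower. None of the 5 was called in the vitiligo dog, where CD3E was at 1.41 (edgeR adjusted p = 0.0747) and CD8A at 1.66 (adjusted p = 0.0671), and 2.58% of genes were higher and 6.45% lower; at an unadjusted p under 0.05 these 2 of the 5 genes would pass.

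**Figure D4:**
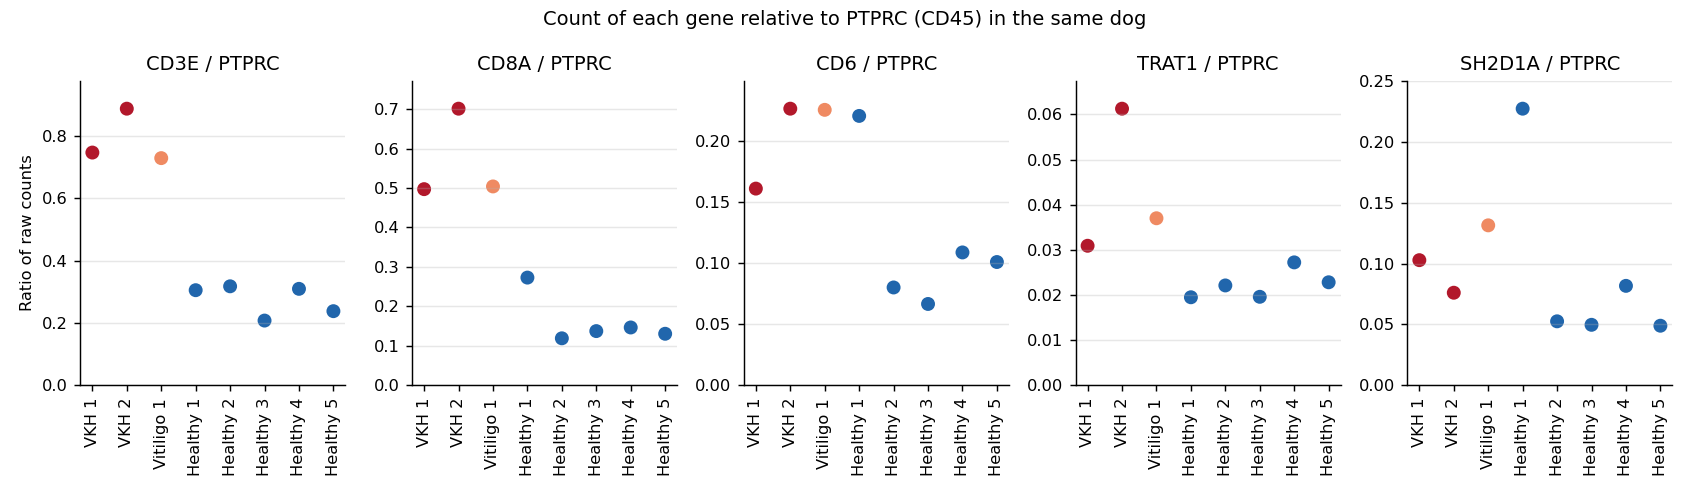
Ratio of the raw count of each gene to that of PTPRC in the 2 VKH dogs (dark red), the vitiligo dog (orange) and the 5 healthy controls (blue). CD3E, CD8A and TRAT1 are higher in all 3 cases than in all 5 controls (TRAT1 on control counts below background), while healthy replicate 1 reaches 0.221 for CD6 and 0.227 for SH2D1A, among or above the cases. After subtraction of the negative control mean, not drawn here, the CD6 ratios did not overlap.

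The panel held 19 other genes from lists of T cell function, and none of the 12 listed genes of the receptor complex and its other co-receptors, CD4 included. Of the 19, 17 were higher and 0 lower in VKH, where 31.4% of all genes were higher, with a median log2 fold change of 1.82, and the 2 that did not pass were the inhibitory receptor LAG3 at 1.01 (edgeR adjusted p = 0.146) and the death ligand FASLG at 0.74 (adjusted p = 0.174). In the vitiligo dog 12 were higher and 7 did not pass, with a median of 1.69 and 21.8% of all genes higher. In the 3 cases 18 were higher, beside 36.5% of all genes and again with a median of 1.69, and FASLG at 0.98 did not pass (edgeR adjusted p = 0.0526). All 19 were above background in the 3 cases, but in healthy skin only 3 were so in all 5 dogs (PTPRC, CD84 and IL15RA), 2 in 4 dogs, 11 in 1 dog and 3 (CD27, FOXP3 and PRF1) in none, so most of the log2 fold changes below are set against a level not measured above background in most controls. With counts under 20 raised to 20, 15, 11 and 16 of the 19 were called higher in VKH, vitiligo and the cases, with medians of 1.57, 1.47 and 1.46. Several of these genes are also used by NK cells, and so are SH2D1A and, in part, CD8A.

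The receptors for SAP and the costimulatory genes were also higher in the cases. CD84 and CD244, 2 SLAM family receptors of the kind that SH2D1A binds, were higher by 1.69 (edgeR adjusted p = 0.000603) and 1.46 (adjusted p = 0.00666). Among genes of costimulation and inhibition, CD27, a TNF receptor family member, was higher by 2.67 (edgeR adjusted p = 0.000289), CD40LG, the helper ligand for CD40, by 1.34 (adjusted p = 0.0112) and LAG3 by 1.27 (adjusted p = 0.0469). CD27 was below background in all 5 controls and CD40LG and LAG3 in 4 of 5, and with the floor of 20 counts they were at 1.38 (edgeR adjusted p = 0.00606), 0.66 (adjusted p = 0.0565) and 0.72 (adjusted p = 0.0707).

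IL21R, the receptor for the T cell cytokine IL-21, rose by 3.40 in the cases (edgeR adjusted p = 3.25e-05) and IL15RA (probe CD215), which presents IL-15, by 1.28 (adjusted p = 0.00714). All 3 measured transcription factors were higher in the joined cases: TBX21, the type 1 regulator, by 2.46 (edgeR adjusted p = 0.000603), FOXP3, the regulatory T cell factor, by 2.21 (adjusted p = 0.00154) and EOMES, a factor of cytotoxic cells, by 1.67 (adjusted p = 0.00806). Of 8 cytotoxic effector genes 7 were higher, among them the cathepsin CTSW by 3.39 (edgeR adjusted p = 0.000209), the granzymes GZMA by 3.17 (adjusted p = 5.99e-05) and GZMB by 2.39 (adjusted p = 0.000255), and the activating receptor KLRK1 by 2.50 (adjusted p = 0.000737). FOXP3 was above background in 0 of the 5 controls, and IL21R, TBX21, EOMES, CTSW, GZMA, GZMB and KLRK1 in 1. With the floor of 20 counts these 8 stayed called in the cases (edgeR), with FOXP3 at 0.95, EOMES at 1.21, KLRK1 at 2.12, GZMB at 2.11, TBX21 at 2.29, GZMA at 2.52, CTSW at 3.30 and IL21R at 3.33. In VKH alone FOXP3 lost its call with this floor (1.05, edgeR adjusted p = 0.0621), and in the vitiligo dog it was then at 0.74. EOMES was not called in the vitiligo dog, at 1.16 without the floor and 0.69 with it.

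**Figure D5:**
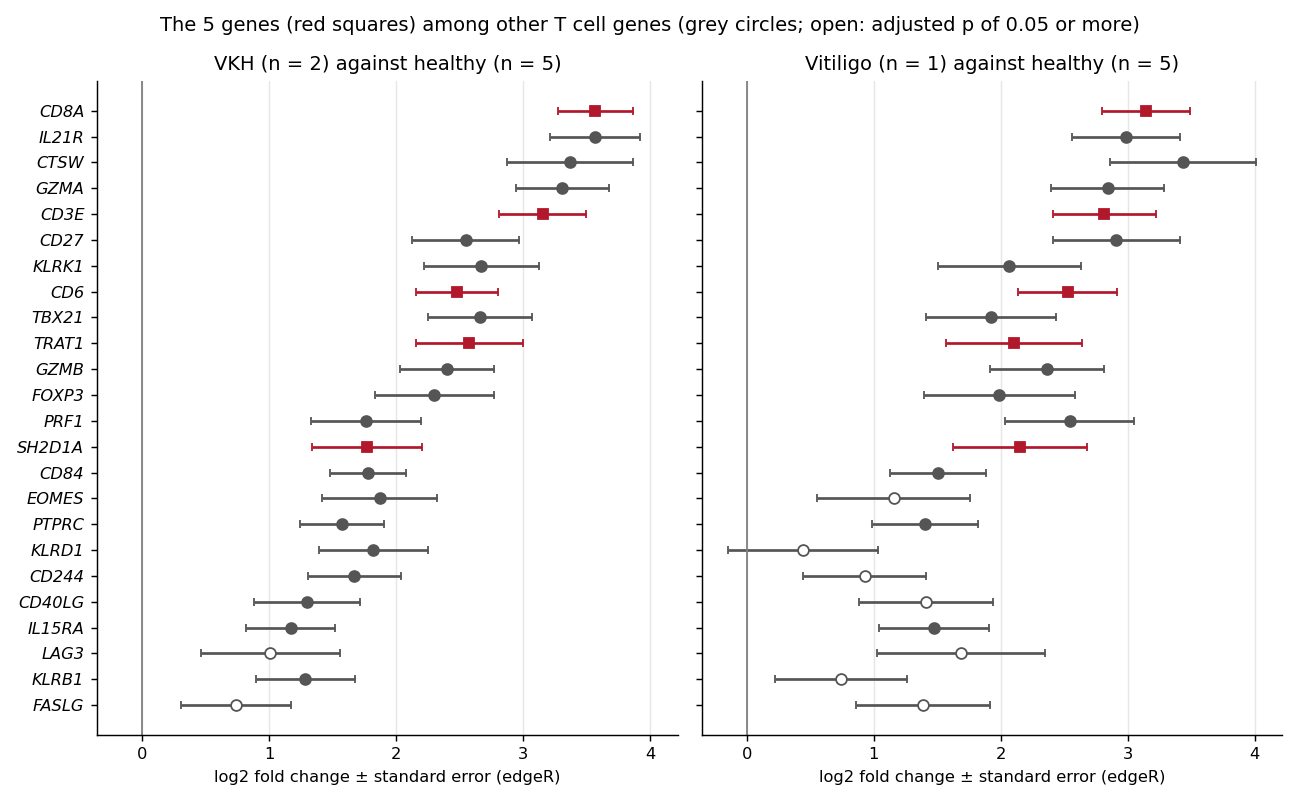
Log2 fold change with its standard error (edgeR) of the 5 genes (red squares) and the 19 other T cell genes (grey circles) in VKH and in the vitiligo dog, each against 5 healthy controls, ordered by the change in the 3 cases. All 24 points lie above 0, CD8A at 3.57 and 3.15 is at the top, and open symbols mark the 2 genes in VKH and the 7 in vitiligo that did not pass.

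Likeness of pattern was measured as the root mean square difference over the 8 dogs of log2(scaled count + 1), each gene centred on its healthy mean. The values describe 8 dogs that share their scaling factors, and the median over the genes outside the 5 was between 1.38 and 2.14. IL21R was the nearest such gene to both CD3E (0.304) and CD8A (0.222), followed by GZMB for CD3E (0.468) and GZMA for CD8A (0.345). CD27 (0.261) and the B cell surface gene MS4A1 (0.370) were nearest to CD6, and TBX21 (0.207) and MS4A1 (0.333) to TRAT1. For SH2D1A the nearest were EOMES (0.433) and IL15RA (0.479). Among the 5 genes CD6 was nearest to SH2D1A at 0.485 and CD8A farthest at 1.01, still below the median of 1.38 over the genes outside the 5. The healthy means used for centring were not above background in any control for TRAT1 and CD27 and in only 1 for IL21R, TBX21, GZMA, GZMB and EOMES, so these distances rest partly on unmeasured levels.

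Markers of other leukocytes moved with these genes in part. Of the 5 listed NK cell markers 2 were measured: KLRD1, a killer lectin receptor shared with cytotoxic T cells, was higher in the cases by 1.49 (edgeR adjusted p = 0.0178), while the more NK-restricted NCR1 was at 0.86 (adjusted p = 0.0647). Their summed scaled count was 89.8 and 237 in VKH replicates 1 and 2 and 70.1 in the vitiligo dog, while the controls had 39.9 to 64.9. Of the 5 measured of 10 B and plasma cell markers 4 were higher and 1, PNOC, was lower in the cases, and their sum was 236 and 415.5 in the VKH dogs and 497 in the vitiligo dog, against 101 to 146. None of these markers had a count of 0 in any dog, and their part in the rise of the 5 genes was not tested. The 2 measured macrophage markers, of 5 listed, went opposite ways: CD84, the gene counted above among the SLAM receptors, was called higher, and CD163 was at -1.16 (edgeR adjusted p = 0.052). Their sum, 959, 841 and 1005 in the cases and 602 to 2515 in the controls, therefore does not show either.

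Markers outside the lymphocytes changed as well. The 2 measured of 7 neutrophil markers summed to 6079 and 4424 in the VKH dogs and 3105 in the vitiligo dog, against 122 to 1583 in the controls. S100A12, a calcium-binding protein, was called higher by 3.63 in the cases (edgeR adjusted p = 0.0161), while the receptor CSF3R fell by 1.37 (adjusted p = 0.00763). Of 3 measured of 5 mast cell markers, the carboxypeptidase CPA3 fell by 1.08 (edgeR adjusted p = 0.0214), and their sum was 367, 340.2 and 656 in the cases and 543 to 778 in the controls. The endothelial marker PECAM1 fell by 1.31 (edgeR adjusted p = 0.0115), with 1628, 1457 and 2339 scaled counts against 2770.0 to 7084. Of the 4 measured of 9 dendritic cell markers 1, BATF3, was called higher in the cases, by 1.03 (edgeR adjusted p = 0.0423), and CD207 was below background in every dog. CCL13 was at -0.94 and HSD11B1 at 0.14, and neither was called. In VKH alone CCL13 was called lower, at -1.47 (edgeR adjusted p = 0.0286), and BATF3 was not called, at 1.07 (adjusted p = 0.0675). The sum of the 4 markers in the cases, 685 to 969, lay inside the healthy range. None of the 3 measured of 6 melanocyte markers was called by edgeR in the cases, nor had any an unadjusted p under 0.05, with TYR at -0.86 (adjusted p = 0.313). In VKH alone TYR was at -1.81, with an edgeR unadjusted p of 0.0426, and was not called (adjusted p = 0.0791). In the vitiligo dog TYR was at 0.12. The part of these changes in the rise of the 5 genes was not tested.

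The housekeeping gene B2M, the light chain of MHC class I, was itself higher in diseased skin, with 106779 to 130591 scaled counts in the cases and 25517 to 46475 in the controls. Without B2M in the scaling, the log2 fold changes in VKH were 3.73 for CD3E, 4.17 for CD8A, 3.09 for CD6, 3.17 for TRAT1 and 2.38 for SH2D1A, and the median of all genes moved up by 0.58 with them.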

How the data were processed

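A custom NanoString panel of 160 genes with 6 positive and 8 negative control probes was read in 8 dogs, each a separate animal per the labels. The authors deposited raw barcode counts per probe, which need no alignment or genome build, and named nSolver for their analysis. Unscaled counts were used here, and the immunohistochemistry was not used. Of the 4 housekeeping genes, CCZ1 was taken to be the remaining housekeeping probe of the table.

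Counts of all 156 other genes were fitted with edgeR 4.0.16 (quasi-likelihood, legacy setting, R 4.3.3), with the geometric mean of the housekeeping genes as library size, no low-count filter, and p-values adjusted over the 156 genes by Benjamini-Hochberg (called under 0.05). The 3 groups were fitted together, and once with VKH and vitiligo joined. Standard errors were the log2 fold change over the square root of F. Single values were tested with exact permutation tests over dogs (two-sided, log2 values with a pseudocount of 1) in SciPy 1.17.1. Counting intervals are 95% exact intervals and cover counting error only. The fits of VKH and of the 3 cases against healthy were also run on simulated counts with known changes. The fits of vitiligo against healthy and of VKH against vitiligo were not.

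The 5 genes, the T cell and marker lists and the tests were chosen with earlier results of these data known. Named genes were the 5 genes, up to 4 of each T cell list with the largest change in the 3 cases, and the 2 nearest genes to each of the 5. Alternatives were 6 other scalings, a filter of 20 counts in at least 2 dogs, a floor of 20 counts, the newer edgeR default, DESeq2 1.42.0, limma 3.58.1, the methods' t-test on unscaled counts, male controls only, only the groups compared, each dog left out, the replicate number as a block, a pseudocount of 10, and subtraction of the negative control mean. Scaling by PTPRC, ratios to it at low counts, and the overlap of groups under each scaling, were added after the data were seen. The probe sequences were not used here.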

Additional observations from a re-analysis of the deposited data

Results flagged for a closer look

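CD40LG in the healthy controls had 1 dog apart from the other 4. Healthy replicate 5 was at 5.83 scaled counts, from 6 raw counts, and the others were at 14.0 to 15.9; its gap to the nearest control was 0.866 of the range on the log2 scale, above the critical value of 0.71 for 5 samples. Its count lay below its background of 24.2, 28 groups of values were examined, and chance marks about 1 in 20.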

How the results depend on the processing

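CD3E and CD8A kept their direction and their call in VKH and in the 3 cases under every alternative, with log2 fold changes of 1.57 to 3.84 and 1.91 to 4.18 in VKH. The number of the 5 called, with 1 dog left out, was 4 to 5 in VKH, 5 to 5 in vitiligo and 5 to 5 in the 3 cases. In vitiligo it was 3 with no scaling and 0 with the positive controls; relative to PTPRC it was 2, 0 and 2 in VKH, vitiligo and the cases. The number of the 19 other T cell genes called, 17, 12 and 18 in these comparisons, ran from 12 to 17, 9 to 12 and 15 to 19 with 1 dog left out. It was 9, 7 and 11 with the panel total and 4, 0 and 4 of the remaining 18 relative to PTPRC. In vitiligo it was 5 with no scaling, 6 with TMM, 7 with median of ratios, 1 with the positive controls and 6 against male controls. The methods' t-test on VKH put 5 of the 5 genes and 16 of the 19 past its threshold, and 4 and 11 after Benjamini-Hochberg adjustment (SH2D1A adjusted p = 0.0916). The cause of these changes was not tested.

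Replicate numbers in the labels name dogs, and the labels give no pairing of VKH with healthy dogs. Deviations of same-numbered VKH and healthy dogs correlated at -0.0761 and -0.126. With 2 VKH dogs centred on their mean, the deviations mirror each other, so these values cannot decide whether same-numbered dogs are alike. With the replicate block, 4, 3 and 4 of the 5 genes and 8, 3 and 9 of the 19 were called in VKH, vitiligo and the cases, and TRAT1 in VKH against vitiligo was at -0.129.

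For VKH against vitiligo, no alternative called any of the 5 genes, but directions turned. CD6, at -0.05, was at 0.26 with no scaling, 0.021 without B2M, 0.082 with TMM, 0.16 with median of ratios, 1.03 with the positive controls and -0.33 to 0.19 with 1 dog left out. SH2D1A, at -0.38, was at 0.062 with no scaling and 0.73 with the positive controls, CD3E at -0.020 with the panel total, and TRAT1 at -0.10 to 0.91 with 1 dog left out. The TRAT1 to CD3E ratio turned from -0.79 to 0.31 after background subtraction, where the healthy TRAT1 counts lay below background. The vitiligo comparison could not be run without its only dog. Depth limited TRAT1 most, with 3 to 15 counts in healthy skin, and the CD8A to CD3E difference went from 0.33 to 0.49 (exact p = 0.0571, the smallest 3 against 4 dogs allow) without healthy replicate 1, which held 47 CD3E counts.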
